A study of Mus musculus with 6 samples.

Results

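The 59 genes described here are those of the translation initiation and elongation factors, the proteins that load ribosomes onto mRNA and drive them along it, in activated CD8 T cells of aged and young mice. By symbol they also include inhibitors such as Eif4ebp1 and enzymes that modify the factors, such as Eef2k. They were taken from the 6 deposited libraries as the protein-coding genes with a symbol that begins with Eif and a digit, or with Eef1 or Eef2, without the eIF2 kinases (Eif2ak) and Eef1e1, and averaging 1 CPM or more (reads of a gene, scaled to a common library total) over all libraries. Of 63 such genes 59 met the minimum, out of 10511 genes that met it in all. Among them 49 are eIF genes and 10 are eEF genes. The lowest member mean was 3.61 CPM, for Eif5a2. Below the minimum lay Eef1akmt3, at 0.882 CPM, and Eef1a2, Eif2s3y and Eif4e1b, which had no read in any library.

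Aged mice were around 65 weeks old and young mice 6 weeks old; all were female, wild type and of the C57BL/6 strain. Splenic CD8 T cells, the cytotoxic lymphocytes, were isolated with a kit, stimulated for 2 days by immobilized antibodies to TCR-β (3 µg/ml) and CD28 (1 µg/ml) with interleukin 2 (10 ng/ml), and kept for 5 more days in interleukin 2 at the same dose, so that RNA comes from day 7. Each age group has 3 libraries. The labels call them biological replicates without saying whether each came from its own mouse, so p-values refer to the scatter among libraries. Unequal handling of the cultures, if any, cannot be told apart from age.

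Translation begins when eIF2 with GTP and initiator tRNA, together with eIF1, eIF1A, eIF5 and the multisubunit eIF3, loads the small ribosomal subunit. The cap-binding complex eIF4F, made of the cap-binding protein eIF4E, the scaffold eIF4G and the helicase eIF4A, brings that subunit to the capped mRNA. eEF1A then delivers each aminoacyl-tRNA and eEF2 moves the ribosome by a codon. T cells that leave rest and divide make much more protein, and eIF2 and eIF4F activity are known points of control in them.

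Recovered reads per library ran from 1952552 to 2785915, so that 1 read was worth 0.359 to 0.512 CPM, and between 11371 and 11874 genes had a read. The libraries are of the QuantSeq 3' type, in which a transcript gives reads at its 3' end only. CPM therefore does not grow with transcript length, but comparing levels between genes still has limits. Of the 59 members 16 share exons on the same strand with another gene or have a 3' end near-identical to part of another gene's transcript. How such shared reads were counted is not stated. The 5 listed T cell markers (Cd8a, Cd8b1, Cd3d, Cd3e, Cd3g), of which the CD3 genes are not particular to CD8 cells, summed to 1452 to 1628 CPM in aged and 1891 to 1976 CPM in young libraries. Of these 4 were called lower. Cd8a was not, at 321, 344 and 244 CPM in the aged libraries, against 266, 276 and 268 CPM in the young libraries. Cd4 was at most 0.384 CPM. Cd79a, Ms4a1 and Lyz2, markers of B cells and myeloid cells, and the globin gene Hbb-bs had no read in any library. The B cell gene Cd79b was at 0 to 1.53 CPM in aged and 2.51 to 9.99 CPM in young libraries, and the 5 erythroid markers summed to 1.15 to 4.71 CPM in aged and 9.999 to 22.3 CPM in young libraries. Myeloid markers (4 listed) summed to 1.54 to 8.47 CPM in aged and 2.15 to 4.78 CPM in young libraries. Among them Csf1r had reads only in Aged replicate 3 (7.06 CPM). Itgam was at 0 to 0.941 CPM in aged and 1.44 to 4.35 CPM in young libraries, and Cd14 at 0.471 to 2.68 CPM and 0 to 0.718 CPM. The pair of natural killer cell markers summed to 11.9 to 17.9 CPM in aged and 20.4 to 26.5 CPM in young libraries. Nearly all of this was Klrb1c, since Ncr1 was at most 0.384 CPM.

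In aged cells 22 of the 49 eIF genes rose and 4 fell, while of the 10 eEF genes 1 rose and 3 fell, the last including Eef1a1 and Eef2, the most abundant members of all. Of the 5 eEF genes that encode eEF1 and eEF2 themselves, 2 fell and 3 did not pass. Of the 59 members 23 rose, 7 fell and 29 did not pass the limma test, which called 16.2% of all 10511 tested genes higher and 12.5% lower. The members are mostly abundant, 36 of them averaging at least 100 CPM, and the share over all genes depends on how many low genes are tested. With a minimum of 5 CPM 1697 of 8616 tested genes were called higher and 1196 lower, beside 23 and 7 of 58 members. Called increases ran from 1.18-fold to 1.78-fold and called decreases from 1.17-fold to 1.79-fold. The median log2 fold change of the members was 0.17, beside 0.03 over all tested genes. In 27 members every aged library lay above every young library, and in 11 every aged library lay below, where 22.5% and 18.3% of all tested genes did so. With TMM scaling 22 members were called higher and 11 lower, where 13.6% of all tested genes were called higher and 14.7% lower. With edgeR's quasi-likelihood test 22 were called higher and 12 lower (13.7% and 14.8% of all tested genes), and with limma-voom also 22 and 12 (13.7% and 14.5%). Over all tested genes, calls of a higher level were thus the more frequent without rescaling and the less frequent in these 3 settings. Without the 16 members that share exons on the same strand or 3' end sequence with another gene, 16 rose and 4 fell. In every one of these settings, and with each library left out, more members were called higher than lower.

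The summed CPM of all members overlapped between the age groups, while those of its eIF and eEF genes did not. All 59 genes summed to 25980.4, 25883 and 26316 CPM in the aged libraries and 25901, 26356 and 25855 CPM in the young libraries. The 49 eIF genes summed to 14435, 14367 and 14693 CPM in the aged libraries and 12757, 12794 and 12554 CPM in the young libraries, 1.14-fold higher. For the 10 eEF genes the sums were 11545, 11516 and 11623 CPM in the aged libraries and 13144, 13561 and 13301 CPM in the young libraries, a ratio of aged over young of 0.867. The ratio of the eIF sum to the eEF sum within a library, which no scaling can alter, was 1.25 ± 0.0089 in aged and 0.953 ± 0.016 in young cells (SD, n = 3 per group). Without Eef1a1 the remaining eEF genes summed to 5124 ± 35.0 CPM in aged and 5608 ± 75.5 CPM in young cells. Under TMM scaling the ratios of aged over young were 0.964 for all members, 1.1 for the eIF genes and 0.835 for the eEF genes.

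**Figure D1:**
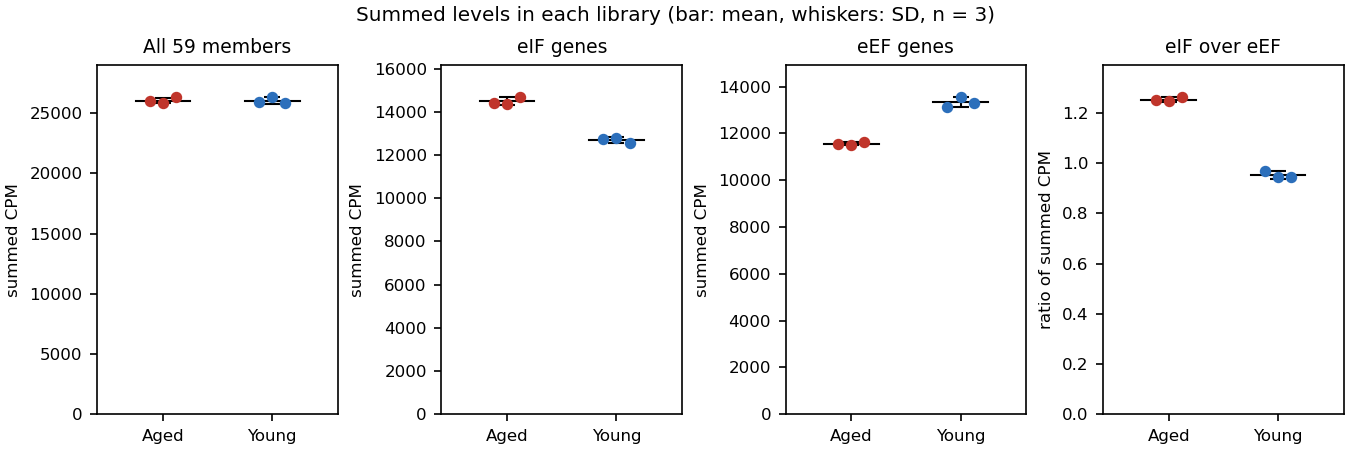
Summed CPM per library (points) of all members, of the eIF genes and of the eEF genes, and the ratio of the eIF to the eEF sum, with mean (bar) and SD (whiskers, n = 3), aged left and young right, on axes from 0. The totals overlap, the eIF sums lie higher and the eEF sums lower in all aged libraries, and the ratio is near 1.25 in aged and 0.95 in young libraries.

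The 11 listed genes of proliferating cells also differed between the age groups. All 11 were called higher in aged cells, and they summed to 3646 to 3713 CPM in aged libraries and 1881 to 2385 CPM in young libraries. The part of proliferation, and that of the marker lists above, in the translation factor differences was not tested. Fewer cells of a type and less RNA per cell cannot be told apart in such bulk samples.

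**Figure D2:**
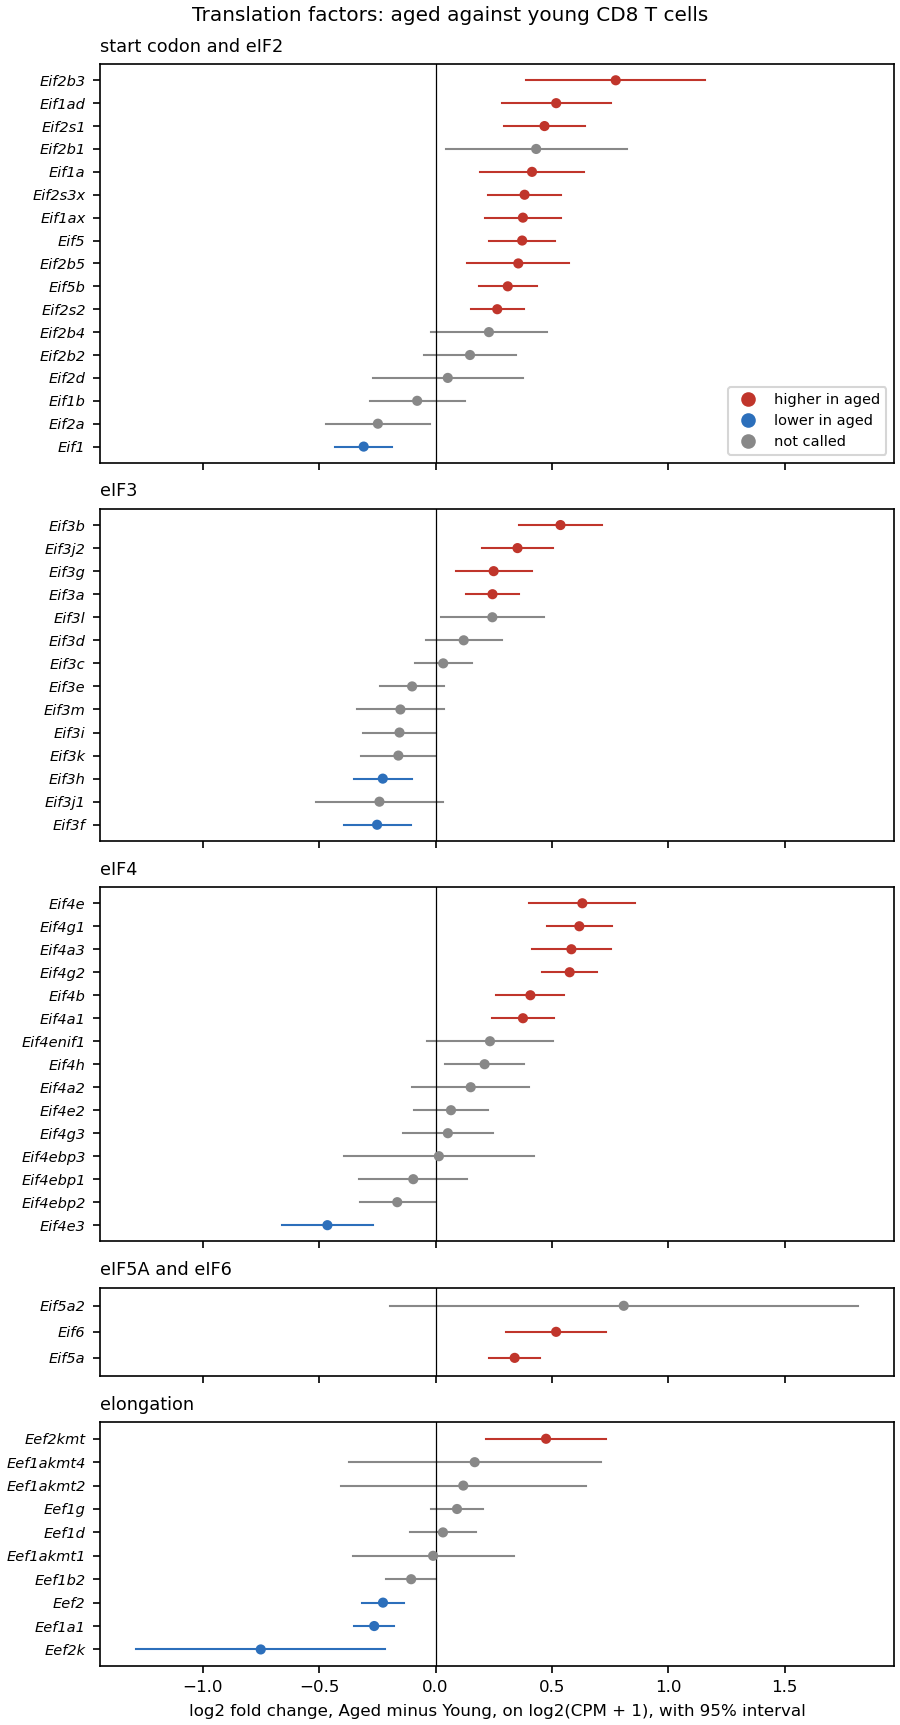
Log2 fold change (aged minus young, on log2(CPM + 1)) of each of the 59 members with its 95% interval, by role and sorted by size, with called increases in red, called decreases in blue and genes not called in grey. The start codon and eIF2 group holds the most red points, 10 of 17, and the eEF group the fewest, 1 of 10.

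The group that finds the start codon and delivers initiator tRNA had 10 of 17 members higher and 1 lower in aged cells and a median log2 fold change of 0.36. All 3 subunits of eIF2 rose. Eif2s1, the α subunit that stress kinases phosphorylate to slow initiation (ENSMUSG00000021116, chromosome 12, 78861819 to 78887010), was at 186, 179 and 171 CPM in the aged libraries, against 135, 118 and 133 CPM in the young libraries (log2 fold change 0.47 ± 0.08 (SE), limma adjusted p = 0.000263). Eif2s2, the β subunit, was at 1851, 1766 and 1959 CPM in the aged libraries, against 1602, 1575 and 1461 CPM in the young libraries (log2 fold change 0.27 ± 0.05 (SE), limma adjusted p = 0.000934). Eif2s3x, the X-linked γ subunit, averaged 229 ± 11.8 CPM in aged cells and 175 ± 4.39 CPM in young cells (SD, n = 3 each; adjusted p = 0.000615 by limma). None of these groups overlapped. By CPM Eif2s2 lay far above Eif2s1, at 10.4 ± 0.892 times its level in aged and 12.05 ± 1.18 times in young cells, and these ranges overlapped. The 3' end sequences of Eif2s2 and Eif2s3x each occur near-identically in 1 other annotated gene, which leaves part of their values uncertain.

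eIF2B, the exchange factor that reloads eIF2 with GTP, is made of 5 subunits, of which 2 rose and 3 did not pass. Eif2b3, the γ subunit (ENSMUSG00000028683, chromosome 4, 117019402 to 117087306), had the largest called increase among the members, at 36.4, 28.4 and 48.9 CPM in the aged libraries, against 18.7, 23.7 and 21.5 CPM in the young libraries (1.78-fold higher; log2 fold change 0.77 ± 0.18 (SE), limma adjusted p = 0.00336). The aged libraries spread widely here, but the lowest of them lay above the highest young library. Eif2b5, the catalytic ε subunit, was at 87.2 ± 5.68 CPM in aged cells and 68.0 ± 5.61 CPM in young cells (log2 fold change 0.36 ± 0.10 (SE), limma adjusted p = 0.0146), and it lost its call without Aged replicate 1 (0.30), without Young replicate 2 (0.29) and with DESeq2 (0.31). Eif2b1, Eif2b2 and Eif2b4 had log2 fold changes of 0.43, 0.15 and 0.23 (95% intervals 0.04 to 0.82, -0.05 to 0.34 and -0.02 to 0.48). Summed, the 5 subunits were at 301 ± 11.6 CPM in aged and 241 ± 9.87 CPM in young cells, below the level of Eif2s2 alone.

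Eif5, which triggers GTP hydrolysis by eIF2 at the start codon, averaged 477 ± 39.8 CPM in aged cells and 368 ± 11.4 CPM in young cells (log2 fold change 0.37 ± 0.07 (SE), limma adjusted p = 0.000347). Eif5b, which joins the ribosomal subunits, averaged 545 ± 19.3 CPM in aged cells and 439 ± 13.8 CPM in young cells (log2 fold change 0.31 ± 0.06 (SE), limma adjusted p = 0.000587). The scanning factor eIF1A is encoded by a pair of genes that both rose. Eif1a was at 112, 112 and 109 CPM in the aged libraries, against 96.9, 82.9 and 71.1 CPM in the young libraries (adjusted p = 0.00611 by limma, 0.051 by DESeq2), and Eif1ax at 204, 192 and 208 CPM in the aged libraries, against 163, 149 and 152 CPM in the young libraries (adjusted p = 0.00106). Eif1ad, which resembles eIF1A in sequence, was at 101, 113 and 83.8 CPM in the aged libraries, against 70.0, 64.6 and 71.1 CPM in the young libraries (log2 fold change 0.52 ± 0.11 (SE), limma adjusted p = 0.00154). All aged libraries lay above all young libraries for each of these 5 genes. The 3' end sequence of Eif5 occurs near-identically in 1 other annotated gene, which leaves part of its value uncertain.

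Eif1, the factor that keeps the scanning ribosome from stopping at a wrong codon, was the sole member of this group to fall (ENSMUSG00000035530, chromosome 11, 100319885 to 100322096). It was at 893, 892 and 902 CPM in the aged libraries, against 1084, 1208 and 1043 CPM in the young libraries, 1.24-fold lower (log2 fold change -0.31 ± 0.06 (SE), limma adjusted p = 0.000471). The groups did not overlap, and the aged libraries lay close together. Its 3' end sequence occurs near-identically in 15 other annotated genes, so its reads could be divided. Its paralog Eif1b was at 94.2, 89.3 and 84.7 CPM in the aged libraries, against 101, 96.9 and 86.1 CPM in the young libraries and did not pass (95% interval -0.28 to 0.13). Eif2a and Eif2d, which can deliver initiator tRNA without eIF2, had log2 fold changes of -0.25 and 0.05 (95% intervals -0.47 to -0.02 and -0.27 to 0.38). Eif2a was called lower with TMM scaling (adjusted p = 0.0444), RLE scaling, edgeR and limma-voom.

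The 14 genes of eIF3, the scaffold of the small subunit complex, did not move as a block. Of these 4 rose, 2 fell and 8 did not pass, with a median log2 fold change of -0.03, below that of all tested genes. Eif3b, which carries an RNA-binding domain and a propeller (ENSMUSG00000056076, chromosome 5, 140419328 to 140443360), was at 182, 179.8 and 180.2 CPM in the aged libraries, against 116, 119.9 and 138 CPM in the young libraries (1.45-fold higher; log2 fold change 0.54 ± 0.08 (SE), limma adjusted p = 8.12e-05). Eif3a, the largest subunit, was at 1166, 1204 and 1231 CPM in the aged libraries, against 988, 1069.7 and 982 CPM in the young libraries (log2 fold change 0.24 ± 0.05 (SE), limma adjusted p = 0.00182). The RNA-binding subunit Eif3g averaged 163 ± 3.70 CPM in aged cells and 137 ± 2.80 CPM in young cells (adjusted p = 0.0212), and its call was lost with each other scaling (0.0574 to 0.0672), with every count test (0.0689 to 0.202) and without Aged replicate 1, Young replicate 1 or Young replicate 2.

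Both eIF3 genes that fell encode subunits with an MPN domain, a fold that some deubiquitinases also have. Eif3f (ENSMUSG00000031029, chromosome 7, 108934417 to 108942951) was at 271, 246 and 259 CPM in the aged libraries, against 299, 304 and 320.5 CPM in the young libraries (log2 fold change -0.25 ± 0.07 (SE), limma adjusted p = 0.00934). Eif3h (ENSMUSG00000022312, chromosome 15, 51786558 to 51865523) was at 408, 420.2 and 414 CPM in the aged libraries, against 486, 472 and 496 CPM in the young libraries (log2 fold change -0.23 ± 0.06 (SE), limma adjusted p = 0.00682). In both, all aged libraries lay below all young libraries. Summed, Eif3f and Eif3h stood at 0.487 ± 0.0144 times the sum of Eif3a and Eif3b in aged and 0.697 ± 0.0401 times in young cells, a ratio formed after their values were seen. The 8 subunits that did not pass had log2 fold changes from -0.24 (Eif3j1) to 0.24 (Eif3l), with Eif3c at 0.03, Eif3d at 0.12, Eif3e at -0.10, Eif3i at -0.15, Eif3k at -0.16 and Eif3m at -0.15. That of Eif3c was negative under the other scalings, and Eif3i and Eif3k were called lower with edgeR and limma-voom, Eif3k also with TMM scaling, while Eif3l was called higher without Young replicate 1 (0.33, adjusted p = 0.0437). Eif3j1 and Eif3j2 encode a loosely bound subunit. The 3' end sequence of Eif3j2 occurs near-identically in Eif3j1, but that of Eif3j1 was not found in Eif3j2. Eif3j2 was at 296, 297 and 301 CPM in the aged libraries, against 232, 253 and 215 CPM in the young libraries (adjusted p = 0.00112), and Eif3j1 at 40.5, 34.1 and 36.7 CPM in the aged libraries, against 46.5, 43.1 and 42.3 CPM in the young libraries, with no overlap between groups for either gene. Since reads could be divided between them, their sum is given too, at 336, 331 and 337 CPM in the aged libraries, against 279, 296 and 257 CPM in the young libraries.

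In the eIF4 group 6 of 15 genes rose and 1 fell, and the genes that rose included the main one for each part of eIF4F, while Eif4g3 and Eif4a2, which encode further forms of the scaffold and the helicase, did not pass. Eif4e, the cap-binding protein (ENSMUSG00000028156, chromosome 3, 138526179 to 138559696), was at 156, 163 and 143 CPM in the aged libraries, against 100.4, 82.2 and 117 CPM in the young libraries (1.54-fold higher; log2 fold change 0.63 ± 0.11 (SE), limma adjusted p = 0.000203). Eif4g1, the main scaffold (ENSMUSG00000045983, chromosome 16, 20668313 to 20692884), was at 684, 666 and 687 CPM in the aged libraries, against 464, 398 and 467 CPM in the young libraries (1.53-fold higher; log2 fold change 0.62 ± 0.07 (SE), limma adjusted p = 1.12e-06). Eif4a1, the main helicase (ENSMUSG00000059796, chromosome 11, 69666936 to 69672423), was at 361, 368 and 372 CPM in the aged libraries, against 285, 278 and 285 CPM in the young libraries (1.30-fold higher; log2 fold change 0.38 ± 0.06 (SE), limma adjusted p = 0.00016). No young library reached the lowest aged library for any of the 3. Eif4b, which stimulates the helicase, averaged 359.9 ± 9.18 CPM in aged cells and 271 ± 19.7 CPM in young cells (adjusted p = 0.000185), and the related cofactor Eif4h averaged 147 ± 5.45 CPM in aged cells and 127 ± 2.71 CPM in young cells and did not pass (adjusted p = 0.0585, 95% interval 0.04 to 0.38).

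Eif4g2, an eIF4G relative that lacks the eIF4E-binding part and serves cap-independent initiation (ENSMUSG00000005610, chromosome 7, 111067750 to 111083030), was at 817, 829 and 782 CPM in the aged libraries, against 539.9, 532 and 556 CPM in the young libraries (1.49-fold higher; log2 fold change 0.58 ± 0.06 (SE), limma adjusted p = 3.5e-07). Eif4a3, a helicase of the exon junction complex that marks spliced mRNA rather than of eIF4F, was at 185, 208 and 209 CPM in the aged libraries, against 135, 129 and 137 CPM in the young libraries (1.50-fold higher; log2 fold change 0.58 ± 0.08 (SE), limma adjusted p = 1.94e-05). Together the 3 eIF4G genes summed to 1613 ± 9.07 CPM in aged and 1106 ± 47.0 CPM in young cells. Their 3' end sequences occur near-identically in other annotated genes, 2 for Eif4e and 3 for Eif4a3, which leaves a part of the values of both uncertain.

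Neither Eif4e3 nor any of the 3 4E-BP genes was called higher. Eif4e3, an atypical cap-binding relative of eIF4E (ENSMUSG00000093661, chromosome 6, 99625135 to 99666771), was at 96.8, 106 and 109 CPM in the aged libraries, against 130.4, 144 and 158 CPM in the young libraries (1.39-fold lower; log2 fold change -0.46 ± 0.09 (SE), limma adjusted p = 0.000834), with all aged below all young libraries. It shares exons on its strand with another annotated gene. Eif4ebp1 and Eif4ebp2 encode 4E-BP proteins, which hold eIF4E away from eIF4G unless mTORC1 phosphorylates them. Eif4ebp1 was at 72.7, 68.6 and 66.8 CPM in the aged libraries, against 74.3, 84.0 and 65.3 CPM in the young libraries (95% interval -0.33 to 0.14), and Eif4ebp2 at 228, 215 and 231 CPM in the aged libraries, against 262, 267 and 229 CPM in the young libraries (95% interval -0.324 to -0.0043). Neither passed, although Eif4ebp2 was called lower with TMM scaling (adjusted p = 0.0457), RLE scaling, edgeR, limma-voom and without Young replicate 3. Eif4ebp3 lay at 15.4 to 18.4 CPM in aged and 14.2 to 19.6 CPM in young libraries. The ratio of Eif4e to the summed 4E-BP genes, formed after their values were seen, was 0.494, 0.537 and 0.453 in the aged libraries and 0.282, 0.223 and 0.380 in the young libraries, and these groups did not overlap. Eif4enif1, which carries eIF4E into the nucleus, had a log2 fold change of 0.23 (95% interval -0.04 to 0.50).

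**Figure D3:**
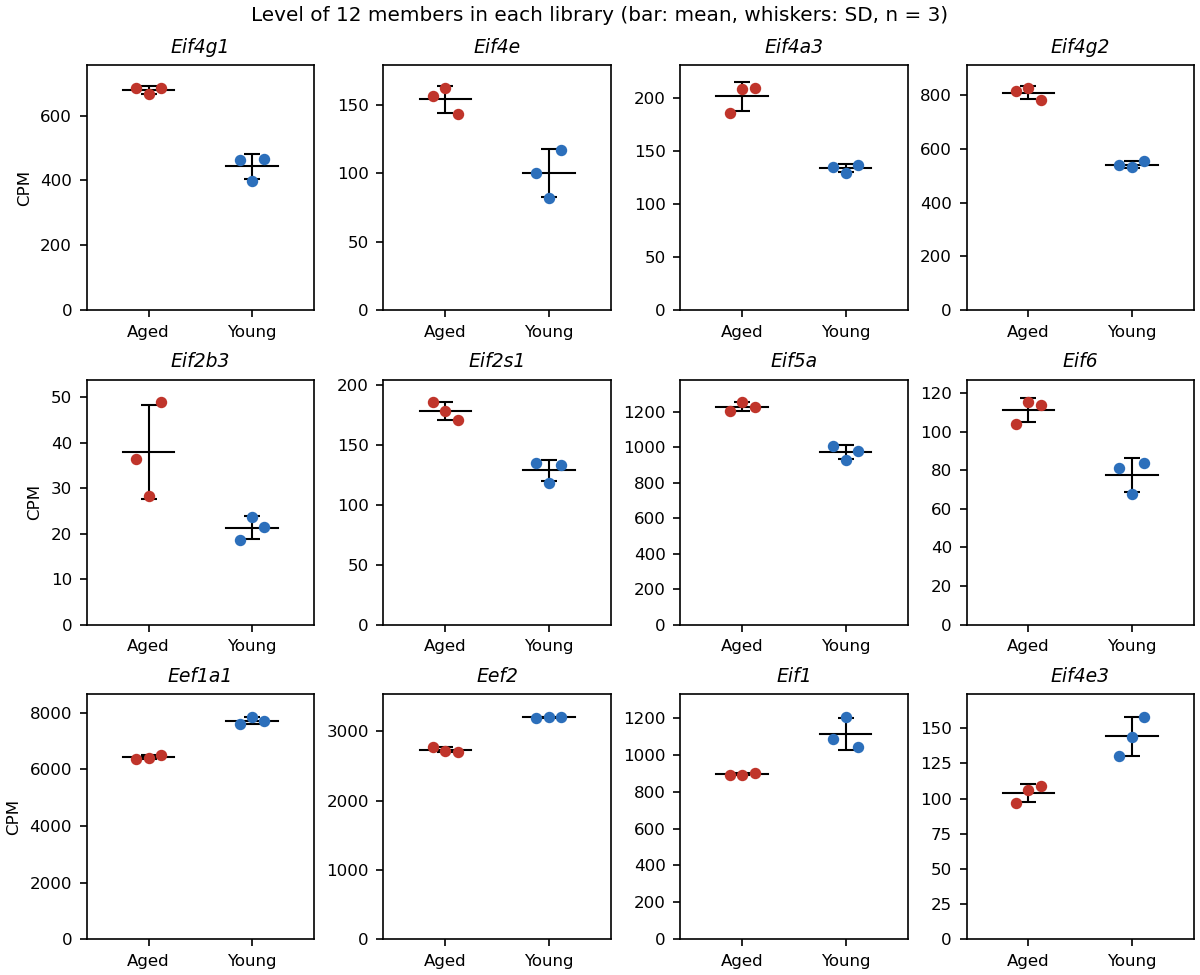
CPM of 12 members in each library (points), with mean (bar) and SD (whiskers, n = 3), aged left and young right, on axes from 0. In the upper 8 panels all aged libraries lie above all young libraries, and in the lower 4 (Eef1a1, Eef2, Eif1, Eif4e3) all lie below.

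Promoter sequence was looked at for the letters CACGTG, the E-box that MYC with its partner MAX is known to bind, since several translation factor genes are known MYC targets. RefSeq promoter windows (GRCm38.p6) of 250 bases before to 50 bases after an annotated start were found for 45 of the 59 members. CACGTG reads the same on both strands. A gene can have several windows, and it was counted if any of them held the letters. CACGTG occurred in 13 of the 45 members (28.9%) and in 12.1% of the 8353 tested genes with a window. Taken window by window, a different measure, it was in 7.15% of all 32851. The number of windows per gene was not compared between members and other genes. Of the members that rose, 5 of 18 had it (Eif3a, Eif4a1, Eif4e, Eif4g1, Eif5a), and so had 3 of the 5 that fell and had a window (Eef2, Eef2k, Eif3f) and 5 of the 22 that did not pass. Over all tested genes with a window, 13.9% of those called higher and 9.74% of those called lower had it. The 5 members that fell are too few for a share to be read. The letters thus stood in members of either direction. The 6 stretches below are shown for that reason, 4 from genes that rose and 2 from genes that fell, each read 5′ to 3′ on the gene's strand upstream of an annotated start, with CACGTG in capitals.
Eif4e, chr3:138527192-138527221, plus strand: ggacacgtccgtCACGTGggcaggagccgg
Eif4g1, chr16:20672617-20672716, plus strand: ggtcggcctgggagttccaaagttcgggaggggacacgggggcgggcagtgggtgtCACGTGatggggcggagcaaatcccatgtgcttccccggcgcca
Eif4a1, chr11:69672544-69672643, minus strand: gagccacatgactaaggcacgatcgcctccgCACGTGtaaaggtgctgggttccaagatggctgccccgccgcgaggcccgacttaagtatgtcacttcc
Eif5a, chr11:69921407-69921506, minus strand: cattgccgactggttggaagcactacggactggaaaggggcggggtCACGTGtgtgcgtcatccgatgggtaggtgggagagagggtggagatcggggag
Eef2, chr10:81176531-81176630, plus strand: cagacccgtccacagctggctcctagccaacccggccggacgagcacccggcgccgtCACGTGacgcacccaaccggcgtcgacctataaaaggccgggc
Eif3f, chr7:108934297-108934396, plus strand: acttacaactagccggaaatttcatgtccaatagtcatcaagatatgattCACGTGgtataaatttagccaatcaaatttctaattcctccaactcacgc
Counted from the annotated start, the first base of the E-box shown lay at -64 in Eif4e, -54 in Eif4g1, -189 in Eif4a1, -74 in Eif5a, -43 in Eef2 and -68 in Eif3f. No binding was measured here.

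eIF5A, named as an initiation factor, is known to help the ribosome through difficult stretches such as runs of proline and depends on the modified lysine hypusine. Eif5a (ENSMUSG00000078812, chromosome 11, 69916714 to 69921958) was at 1208, 1257 and 1228 CPM in the aged libraries, against 1007, 929.7 and 981 CPM in the young libraries (1.27-fold higher; log2 fold change 0.34 ± 0.05 (SE), limma adjusted p = 6.65e-05), with no overlap between groups. Its enzymes did not pass, with log2 fold changes of 0.31 for Dhps and 0.25 for Dohh (95% intervals -0.25 to 0.88 and -0.08 to 0.58). The 3' end sequence of Eif5a occurs near-identically in 2 other annotated genes, which leaves part of its value uncertain. The paralog Eif5a2 was near the detection floor, at 1.02, 9.58 and 5.18 CPM in the aged libraries, against 1.74, 1.44 and 2.69 CPM in the young libraries, and it did not pass (0.81, adjusted p = 0.231). Without Aged replicate 1, the lowest of the libraries, its log2 fold change was 1.47 (adjusted p = 0.0115). A count of 0 in a library would allow up to 1.08 to 1.54 CPM, a limit that covers counting error only. Eif6, which holds the large ribosomal subunit apart from the small one and helps to build it (ENSMUSG00000027613, chromosome 2, 155819832 to 155826925), was at 104, 115 and 114 CPM in the aged libraries, against 81.3, 67.5 and 83.8 CPM in the young libraries (1.43-fold higher; log2 fold change 0.52 ± 0.10 (SE), limma adjusted p = 0.000747).

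Among the eEF genes, the delivery and translocation factors were lower in aged cells and the exchange factor subunits did not pass. Eef1a1 (ENSMUSG00000037742, chromosome 9, 78478449 to 78489151), the most abundant member, was at 6381, 6417 and 6514 CPM in the aged libraries, against 7604, 7872 and 7708 CPM in the young libraries (1.20-fold lower; log2 fold change -0.26 ± 0.04 (SE), limma adjusted p = 7.54e-05). Eef2 (ENSMUSG00000034994, chromosome 10, 81176631 to 81182498) was at 2780.5, 2723 and 2707 CPM in the aged libraries, against 3187, 3200.4 and 3214 CPM in the young libraries (1.17-fold lower; log2 fold change -0.23 ± 0.04 (SE), limma adjusted p = 0.000637). Each group's libraries lay close together in these genes and the groups were well apart. The 3' end sequence of Eef1a1 occurs near-identically in 15 other annotated genes, which leaves part of its value uncertain, while that of Eef2 occurs in none. Eef1a1 stood at 2.35 ± 0.0555 times Eef2 in aged and 2.41 ± 0.0396 times in young cells, and the ranges overlapped.

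The subunits of eEF1B, which reloads eEF1A with GTP, were Eef1b2, Eef1d and Eef1g. Eef1b2 was at 1162, 1159 and 1158 CPM in the aged libraries, against 1228, 1303 and 1211 CPM in the young libraries. All aged libraries were lower, but the difference did not pass (log2 fold change -0.10 ± 0.05 (SE), limma adjusted p = 0.138). It was called with TMM scaling (adjusted p = 0.048), RLE scaling, edgeR and limma-voom. Eef1g averaged 775 ± 6.00 CPM in aged cells and 727 ± 15.8 CPM in young cells and Eef1d 344 ± 17.1 CPM in aged cells and 336 ± 16.0 CPM in young cells, with 95% intervals of the log2 fold change of -0.02 to 0.20 and -0.11 to 0.17, and the sign of Eef1d turned under the other scalings. Eef1d shares exons on its strand with Naprt, and its 3' end sequence occurs near-identically in 2 other annotated genes. That of Eef1b2 occurs in 1, so part of both values is uncertain.

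Enzymes that modify the elongation factors were expressed at far lower levels. Eef2k, the kinase that inactivates eEF2, was at 6.15, 8.43 and 6.59 CPM in the aged libraries, against 15.2, 9.69 and 13.1 CPM in the young libraries (1.79-fold lower; log2 fold change -0.75 ± 0.26 (SE), limma adjusted p = 0.0334), the largest called decrease among the members. The groups did not overlap, but at these levels a library holds few reads, and the call was lost without Aged replicate 1 (-0.67), Aged replicate 3 (-0.71), Young replicate 1 (-0.62) or Young replicate 3 (-0.72), with DESeq2 (-0.87, adjusted p = 0.119) and with no filter on low values (adjusted p = 0.0632). Eef2kmt, a methyltransferase of eEF2, was at 54.8, 50.2 and 50.4 CPM in the aged libraries, against 36.1, 39.1 and 35.7 CPM in the young libraries (1.40-fold higher; log2 fold change 0.48 ± 0.12 (SE), limma adjusted p = 0.00645), and was not called by DESeq2 (adjusted p = 0.0902). Its exons overlap those of other genes on the opposite strand, and the strand setting of the authors' counting is not stated, so reads could be divided. The same limit holds for all 15 members with such an overlap, among them Eif1ad, Eif5b, Eif6 and Eef2k. The methyltransferases of eEF1A, Eef1akmt1, Eef1akmt2 and Eef1akmt4, had log2 fold changes of -0.01, 0.12 and 0.17 and did not pass (95% intervals -0.36 to 0.34, -0.41 to 0.64 and -0.37 to 0.71).

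Paralogs of the same factor were compared by their ratio within each library. For each of 10 pairs the difference of log2(CPM + 1) was tested by a two-sided exact permutation test. With 3 libraries against 3 the smallest p it allows is 0.1, so no pair could pass. The ratio of Eif4e3 to Eif4e differed most among the pairs at that p, at 0.679 ± 0.075 in aged cells and 1.47 ± 0.25 in young cells (exact p = 0.1, adjusted p = 0.2). For Eif4e2, which encodes a cap-binding repressor, over Eif4e it was 1.49 ± 0.079 in aged cells and 2.24 ± 0.5 in young cells (exact p = 0.1, adjusted p = 0.2). Eif4e2 itself was at 218, 245 and 222 CPM in the aged libraries, against 226, 225 and 203 CPM in the young libraries and did not pass. The order of the 3 cap-binding genes therefore differed: Eif4e lay above Eif4e3 in all aged libraries and below it in all young libraries, while Eif4e2 lay above both in every library. The groups did not overlap for either ratio.

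The ratio of Eif4g3 to Eif4g1 was 0.184 ± 0.011 in aged cells and 0.274 ± 0.039 in young cells (exact p = 0.1, adjusted p = 0.2), with Eif4g3 itself at 118, 123 and 134 CPM in the aged libraries, against 131, 123 and 109 CPM in the young libraries. That of Eif1b to Eif1 was 0.0999 ± 0.0058 in aged cells and 0.0853 ± 0.0068 in young cells (exact p = 0.1, adjusted p = 0.2). For Eif4a2 over Eif4a1 it was 0.185 ± 0.019 in aged cells and 0.216 ± 0.031 in young cells (exact p = 0.3), and Eif4a2 was at 69.1, 73.6 and 60.7 CPM in the aged libraries, against 61.7, 68.6 and 53.0 CPM in the young libraries. Eif3j2 over Eif3j1 stood at 8.06 ± 0.71 in aged cells and 5.32 ± 0.49 in young cells (exact p = 0.1, adjusted p = 0.2), with the limit on their reads named above. The 4 other pairs, Eif5a2 over Eif5a, Eif4g2 over Eif4g1, Eif4ebp2 over Eif4ebp1 and Eif1ax over Eif1a, overlapped between groups (exact p = 0.2 to 0.9).

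Other genes of translation that are not members, 56 regulators, release, recycling and mitochondrial factors, were taken from a list, of which 55 were tested. In aged cells 13 rose, 10 fell and 32 did not pass, with a median log2 fold change of 0.10. Over all tested genes 16.2% were called higher and 12.5% lower, beside 23.6% and 18.2% of the 55. Pdcd4, an inhibitor of the eIF4A helicase (ENSMUSG00000024975, chromosome 19, 53892231 to 53929860), was at 71.2, 72.8 and 78.1 CPM in the aged libraries, against 186, 204 and 221 CPM in the young libraries (2.75-fold lower; log2 fold change -1.44 ± 0.09 (SE), limma adjusted p = 3.74e-09). Ddit4, an inhibitor of mTORC1, was at 372, 234 and 280.0 CPM in the aged libraries, against 685, 646 and 587 CPM in the young libraries (2.16-fold lower; log2 fold change -1.13 ± 0.11 (SE), limma adjusted p = 3.84e-07). Paip2, which keeps poly(A)-binding protein from eIF4G, was at 70.7, 66.7 and 76.7 CPM in the aged libraries, against 124, 148 and 135 CPM in the young libraries (1.90-fold lower; log2 fold change -0.92 ± 0.10 (SE), limma adjusted p = 1.09e-06). The kinase gene Rps6ka1 averaged 138 ± 9.14 CPM in aged cells and 211 ± 17.6 CPM in young cells (adjusted p = 2.2e-05). In these 4 genes all aged libraries lay below all young libraries.

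Of the genes that rose, Ddx3x, a helicase used in scanning, was at 349, 388 and 392 CPM in the aged libraries, against 243, 223 and 254 CPM in the young libraries (1.57-fold higher; log2 fold change 0.65 ± 0.07 (SE), limma adjusted p = 2.12e-06). Abce1, which splits ribosomes for the next round, averaged 105 ± 7.64 CPM in aged cells and 64.8 ± 10.9 CPM in young cells (adjusted p = 0.000141). Gspt1, the release factor eRF3, averaged 198 ± 15.9 CPM in aged cells and 131 ± 16.5 CPM in young cells (adjusted p = 9.97e-05), and Eef1e1, a subunit of the aminoacyl-tRNA synthetase complex, 34.7 ± 1.48 CPM in aged cells and 17.7 ± 0.660 CPM in young cells (1.96-fold higher; adjusted p = 0.000152). All aged libraries lay above all young libraries in each of these. The 9 other genes that rose had log2 fold changes of 0.34 to 0.62 and the 6 others that fell of -0.74 to -0.16. Poly(A)-binding protein genes parted, with Pabpc1 at 5436 ± 417 CPM in aged cells and 6063 ± 407 CPM in young cells (adjusted p = 0.0412) and Pabpc4 at 189.9 ± 21.4 CPM in aged cells and 135 ± 11.7 CPM in young cells (adjusted p = 0.000513). The fall of Pabpc1 was small, its groups overlapped, and it lost its call with no filter and without any of Aged replicates 1 and 2 and Young replicates 1 and 3 (-0.18 to -0.10). Of the 9 mitochondrial factors Gfm1 and Mrrf rose, both losing the call under most alternatives, and 7 did not pass. Of the kinases that phosphorylate eIF2α, Eif2ak3 fell (-0.39), and it lost its call with DESeq2 (-0.45, adjusted p = 0.055) and without Aged replicate 1, Aged replicate 2 or Young replicate 3 (-0.38 to -0.28 in these). Eif2ak1, Eif2ak2 and Eif2ak4 did not pass, at 0.15, -0.16 and -0.16.

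**Figure D4:**
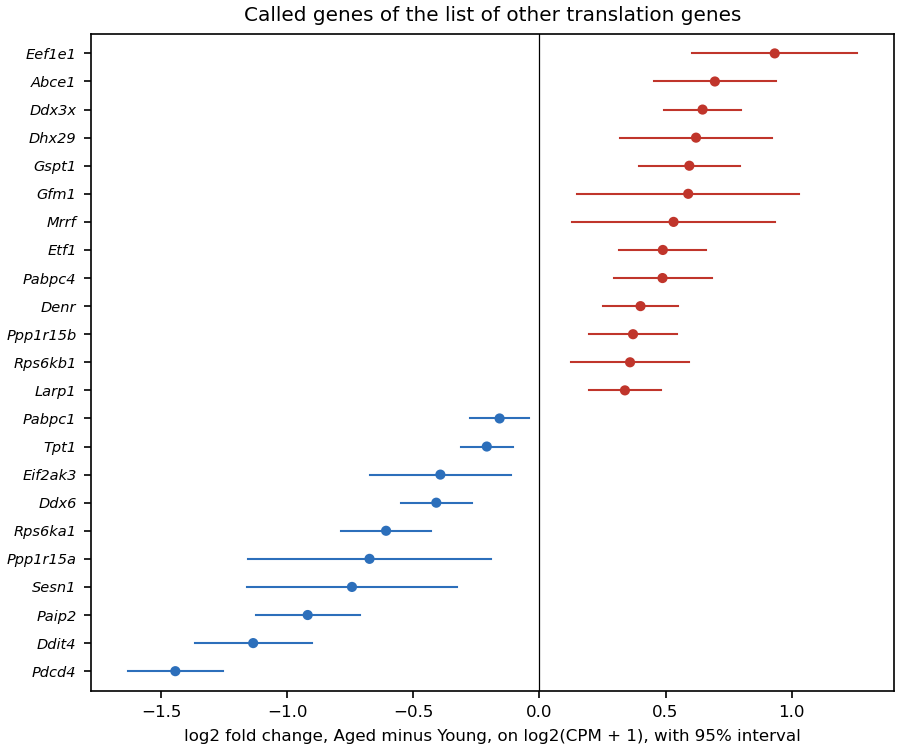
Log2 fold change (aged minus young, on log2(CPM + 1)) with 95% interval of the 23 called genes of the list of other translation genes, increases in red and decreases in blue. Pdcd4, Ddit4 and Paip2 have the largest decreases and Eef1e1 the largest increase.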

How the data were processed

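The authors deposited 1 table per library of CPM values per Ensembl gene (QuantSeq 3' libraries, GRCm38 per the submitters' processing notes). Not given in the sources used here are aligner, counter and strand setting. The table assigned to Aged replicate 2 has a column header that names replicate 3, and it was used as replicate 2. CPM values were whole multiples of what 1 read is worth: divided by the smallest value of the library, 100% were whole within 0.001 reads. These recovered reads, 1952552 to 2785915 per library, are not unique molecules, so limits from them cover counting error only. One identifier with a blank value was left out, of 25655.

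Symbols were matched for 25599 identifiers, and gene types and coordinates came from GENCODE on GRCm38. Genes averaging 1 CPM or more were tested on log2(CPM + 1) with limma 3.58.1 (trend, R 4.3.3), aged minus young, with Benjamini-Hochberg adjustment over all 10511 and a threshold of 0.05; log2 fold changes are on that scale and understate those of low genes, while values given as n-fold higher or lower are ratios of mean CPM. Adjusted p-values without a named tool are limma's. Values in triplets are replicates 1 to 3, means are given with SD (n = 3 per group) and log2 fold changes with SE. Alternatives were TMM, RLE and upper-quartile scaling, no filter, a minimum of 5 CPM, pseudocounts of 0.1 and 5, a replicate block, leaving out each library, and, on the recovered reads, edgeR 4.0.16 (quasi-likelihood; 1443 genes higher, 1557 lower), DESeq2 1.42.0 and limma-voom. Of these fits only that of limma was tested on simulated data, in which no gene of low level was given a change. A 3' end was called near-identical to another gene where at least 95% of at least 100 of its last 200 bases matched a transcript of that gene. The match could lie anywhere in that transcript, not only at its own 3' end.

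Members, lists and tests were chosen with earlier results of these data known. Per-library values were set to be given for up to 10 called members per direction with the largest change, the 6 most abundant and the paralog pairs, and values for up to 4 genes per direction of the list of other translation genes, those with the smallest p; further genes named were chosen after their values were seen. One marker gene is not reported here.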

Additional observations from a re-analysis of the deposited data

How the results depend on the processing

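Of the 30 called members 25 kept call and direction under every alternative tried, 19 higher and 6 lower; the exceptions were Eef2k, Eef2kmt, Eif1a, Eif2b5 and Eif3g. Members called lower numbered 11 with TMM scaling, 12 with edgeR, 12 with limma-voom and 4 without the 16 members that share exons or 3' end sequence, an alternative chosen after seeing the data. The members' median log2 fold change was 0.119 with TMM, 0.123 with RLE and 0.127 with upper-quartile scaling, 0.142 with a pseudocount of 5, 0.149 with limma-voom, 0.211 without members that share exons or 3' end sequence, and 0.158 to 0.226 with each library left out. Over all tested genes the median was 0.03 without rescaling, -0.0167 with TMM, -0.0129 with RLE and -0.00864 with upper-quartile scaling, and the calls were 1701 higher and 1313 lower without rescaling, 1432 and 1548 with TMM, 1451 and 1531 with RLE, and 1465 and 1495 with upper-quartile scaling. Over all tested genes DESeq2 called 952 higher, and leaving out a library gave 1322 to 1582 higher and 1011 to 1207 lower. Summed CPM ratios of aged over young under TMM were 0.964 for all members, 1.1 for eIF and 0.835 for eEF genes. Signs turned for uncalled members near 0. Under TMM, RLE and upper-quartile scaling, edgeR, DESeq2 and limma-voom, in that order, Eef1d was at -0.0209, -0.0171, -0.0124, -0.0246, -0.0198 and -0.025, Eif3c at -0.0199, -0.016, -0.0113, -0.0226, -0.0178 and -0.0238 and Eif4ebp3 at -0.0356, -0.032, -0.0276, -0.0341, -0.034 and -0.018, and edgeR put Eif4g3 at -0.00073. With each library left out the ranges were -0.0989 to 0.0967 for Eef1akmt1, -0.0853 to 0.255 for Eef1akmt2, -0.0927 to 0.462 for Eef1akmt4, -0.00603 to 0.0644 for Eef1d, -0.0586 to 0.143 for Eif2d, -0.00358 to 0.0688 for Eif3c, -0.106 to 0.111 for Eif4ebp3 and -0.0199 to 0.112 for Eif4g3. Likewise the log2 ratio ranged over -0.0436 to 1.12 for Eif5a2 over Eif5a, -0.0803 to 0.0199 for Eif4g2 over Eif4g1 and -0.111 to 0.0591 for Eif1ax over Eif1a. The causes of these changes were not tested. The samples share only replicate numbers: deviations of same-numbered libraries correlated at 0.00025 to 0.0209, and not every library correlated best with its own number. With the replicate number as a block, 23 members were called higher and 7 lower, and of all genes 1725 higher and 1336 lower. Depth limits the least abundant members, such as Eif5a2 and Eef2k.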
